A study of Mus musculus with 6 samples.

Results

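The genes described are the MYC pair Myc and Mycn and 32 genes whose products build ribosomes in the nucleolus. They were taken from a list of 34 symbols, all 34 of which had a row among the 56750 rows of the deposited expression table, and all 34 passed the filter on low values. Expression was measured by RNA sequencing of mouse bone marrow cells labelled Lin- Sca1+ cKit+ (LSK), a fraction enriched for blood stem cells and early progenitors. The 3 DIC mice were C57BL/6 animals given dextran sulfate sodium (DSS), which causes colitis, at 2.5% for 5 days, and the 3 control mice were C57BL/6 animals labelled control, with the same tissue and sort. The sources used here give neither sex nor age, and DSS colitis models an acute chemical injury of the gut lining. Library numbers follow the table's columns, which are DIC 1 to 3 and controls 1, 2 and 4.

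MYC is a transcription factor that, as a dimer with MAX, binds E-box sequences near gene starts. It is known for driving growth genes, among them those for ribosome assembly. In the nucleolus, RNA polymerase I makes the long ribosomal RNA precursor. Small nucleolar ribonucleoproteins (snoRNPs) modify it, and separate sets of assembly factors shape the small and large subunits. Rates of protein synthesis are tightly controlled in hematopoietic stem cells, and Myc and Mycn act partly in place of each other there.

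Values are in TPM, transcript abundance scaled by transcript length and by the library's total, so that levels of different genes can be compared per length. A difference is DIC minus control on the log2(TPM + 1) scale with its standard error (SE), fitted with limma over 13496 genes, and adjusted p is limma's after the Benjamini-Hochberg procedure, called at 0.05. Depth cannot be read from TPM and is unknown here, and no counting interval is given. The labels say no more on replication than 3 mice a group. A p-value sets the difference between groups against the spread of libraries within groups, which limma moderates over all genes, and covers no other variation.

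Each library held 20474 to 22720 genes above 0 TPM. The libraries did not look like a pure sorted fraction. Ly6a, which encodes Sca1, measured 15.5 to 49.9 TPM and Kit 54.2 to 99.5 TPM, while 16 neutrophil markers together took 15.4% to 22.5% of all TPM in DIC. Their share was 12.5% in control 2 but 4.17% in control 1 and 2.98% in control 4. All 16 neutrophil markers had positive differences, where 58.5% of all tested genes had negative ones. In 12 of the 16 every DIC library lay above every control, against 7.08% of all tested genes, and 0 of the 16 were at 0 in every library. The erythroid markers summed to 745.8 to 2123 TPM in DIC and 612 to 816 in control, 13 of 13 with positive differences. The mast cell and basophil markers summed to 432 to 599 TPM in DIC and 1025 to 3478 in control. Markers of granulocyte-monocyte progenitors summed to 31090 to 37460 TPM in DIC and 34680 to 41690 in control, 9 of 10 with negative differences. Differences were also negative for 8 of 8 tested B lineage markers and 7 of 7 tested markers of T and natural killer cells. Megakaryocyte markers and those of macrophages and dendritic cells had differences of both signs. The part of these other cells in the results below was not tested, and in bulk RNA fewer cells of a type and less RNA per cell cannot be told apart.

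The start regions of these genes are shown first, because MYC is known to act through E-boxes there. RefSeq start windows of 300 bases (250 before and 50 after a transcript start, build GRCm38.p6) were available for 28 of the 34 genes. They were missing for Myc, Npm1, Fbl, Bop1, Rrp12 and Rrs1. The letters CACGTG, the canonical E-box, read the same on both strands. A variant, CACGCG, was searched on both strands and reads CGCGTG on the other one. The canonical E-box occurred in 6 of the 28 genes (21.4%), against 12.2% of 9188 tested genes with a window and 7.15% of all 32851 windows. The variant occurred in 9 of the 28 (32.1%), against 19.9% of tested genes and 9.27% of all windows. One or the other occurred in 13 of the 28 (46.4%), against 29.3% of tested genes. A gene can have more than one window, as Noc2l does, so shares of genes and shares of windows are not like for like. The stretches below are 30 bases each, 5′ to 3′ on the gene's strand, with the pattern in capitals. They show every gene with the canonical E-box, and then the 4 genes with the lowest differences (DIC minus control) among those with the variant.
Nop2: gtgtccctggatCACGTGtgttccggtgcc
Pes1: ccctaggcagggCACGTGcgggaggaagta
Wdr43: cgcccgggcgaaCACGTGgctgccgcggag
Tsr1: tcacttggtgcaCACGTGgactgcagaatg
Utp20: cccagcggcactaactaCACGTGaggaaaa
Mybbp1a: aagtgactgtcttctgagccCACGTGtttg
Ppan: agagttacgagcCGCGTGgcaccggaagtt
Nip7: aggctagagagaCACGCGttcgtggacccc
Nhp2: ggaggcggcggcCGCGTGgttcctctatgc
Nop16: ggagactattaaCACGCGgctctgagagcg

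The windows reach 250 bases before and 50 after a transcript start, so any match in them lies near a start by construction. Among the stretches printed above, the Nop2 E-box lay upstream, beginning 60 bases before the start in chr6:125131811-125131840 on the plus strand. So did the Nip7 pattern, which begins 41 bases before the start in chr8:107056824-107056853 on the plus strand. The others lay within the first transcribed bases, on the plus strand unless stated: Pes1 in chr11:3963965-3963994, Wdr43 in chr17:71616220-71616249, Tsr1 in chr11:74898092-74898121, Utp20 in chr10:88826765-88826794 (minus strand) and Mybbp1a in chr11:72441347-72441376. The remaining variants were in chr9:20888172-20888201 for Ppan, chr11:51619764-51619793 for Nhp2 and, on the minus strand, chr13:54590029-54590058 for Nop16. Pes1 and Mybbp1a also hold the variant further upstream, not printed above. It begins 247 bases before the start in Pes1 and 115 and 111 bases before it in Mybbp1a. A match is a stretch of letters and not a measured binding site.

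In DIC, most of these genes measured lower, by a modest amount. Of the 34 genes, 30 had a negative difference, against 58.5% of all tested genes, and the median difference was -0.34 on the log2 scale against -0.08 over all tested genes. No gene passed the test: 0 of 34 had an adjusted p under 0.05, with 0.0593% of all genes passing, and the lowest adjusted p was 0.212. In simulated data the test recovered 42.7% of changes of 1 log2 unit, and smaller changes were not simulated. At an unadjusted p under 0.05, 11 of 34 were lower and 0 higher, where 13.8% of all tested genes were lower. In 15 of the 34 the groups did not overlap and DIC was the lower, against 18.4% of all tested genes. DIC lay wholly above control in 0 of 34, against 7.08% of all tested genes. On these 34 genes the DIC libraries resembled each other more than the controls did. The SD as a share of the mean had a median of 8.15% in DIC and 23.0% in control, and was larger in control for all 34 genes. How many of all tested genes spread more in control was not counted, so this cannot be called particular to the list.

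**Figure D1:**
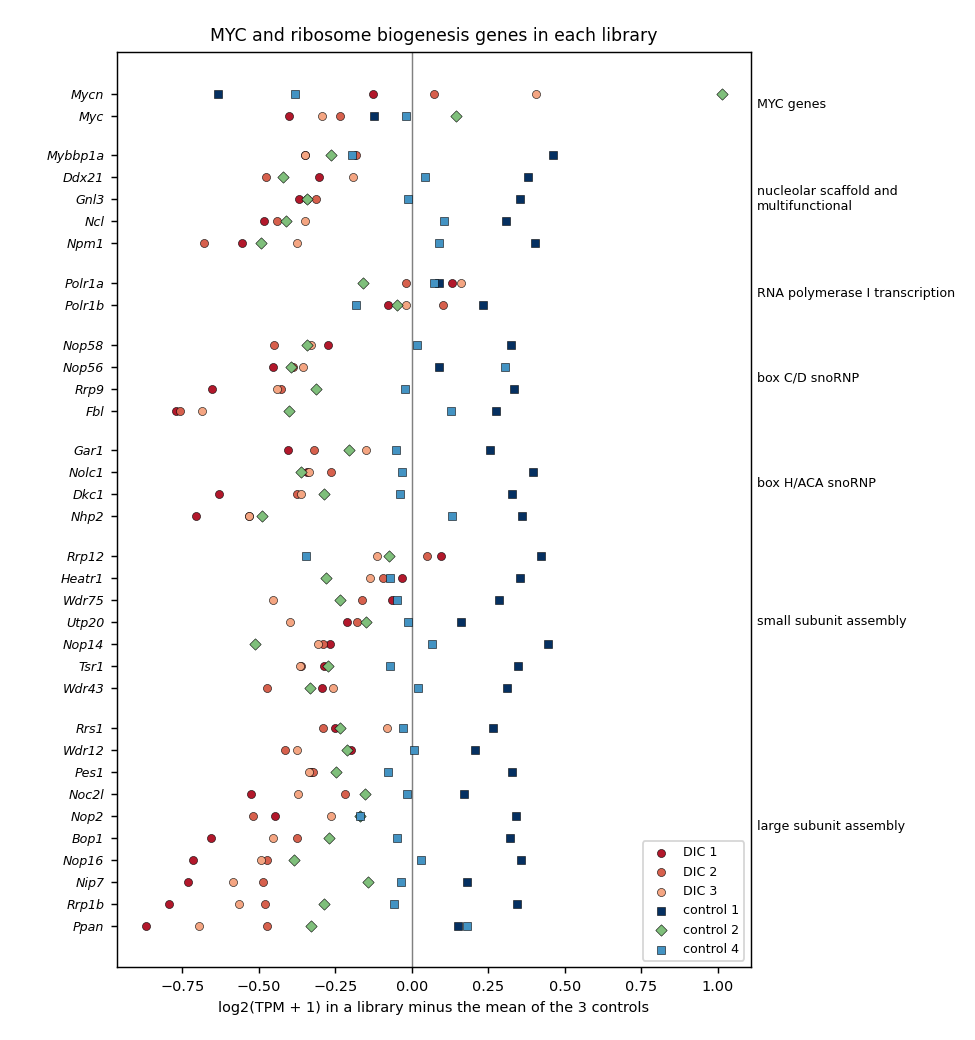
Level of each of the 34 genes in each library as log2(TPM + 1) minus the mean of the 3 controls (x axis), with genes grouped by role (y axis), circles for DIC and squares or diamonds for control. Control 1 is the highest library for 29 of the 34 genes, and control 2 lies near the DIC libraries for most of them but above all others for Myc and Mycn.

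Control 2 stood apart from the other controls on these genes. It was below both control 1 and control 4 in 30 of the 32 assembly genes (the exceptions were Polr1b and Rrp12) and in 0 of the 2 MYC genes, against 36.2% of all tested genes. In 18 of the 34 genes it was below the highest DIC library. Without control 2, 9 of 34 genes passed the test, all lower in DIC, against 8.45% of all tested genes lower, and the median difference was -0.50. Control 2 was singled out on these same genes and was the lowest control in most of them. Leaving it out therefore moves most of their differences further below 0 by construction, so the values without control 2 here and below describe its weight and are no separate support. In 28 of the 34 every DIC library lay below both remaining controls, against 30.9% of all tested genes. Without control 1, the highest library for most of the genes, the median difference was -0.20 and 0 passed, against 0.0445% of all tested genes. The distance from the median of all tested genes was then -0.11, where it was -0.26 with all libraries.

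Both MYC genes were at their highest in control 2. Myc measured 91.5, 103 and 98.7 TPM in DIC 1, 2 and 3 and 111, 134 and 119 TPM in controls 1, 2 and 4. Every DIC library was below every control, and the highest level was in control 2. The difference was -0.31 ± 0.12 (SE), which did not pass (limma adjusted p = 0.226). It was -0.13 after quantile normalization and -0.11 with neutrophil markers removed and TPM rescaled. The group means were 97.6 ± 5.65 and 121.5 ± 11.6 TPM (SD, n = 3 each).

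Mycn, the paralog active in stem cells, was far less abundant, at 2.72, 3.27 and 4.38 TPM in DIC and 1.62, 7.20 and 2.12 TPM in control. The groups overlapped, with control 2 highest and control 1 lowest. Its difference of 0.12 ± 0.44 was smaller than its SE (limma adjusted p = 0.896).

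Set beside these, the 32 assembly genes summed to 2293, 2341 and 2473 TPM in DIC 1, 2 and 3 and to 4035, 2509 and 3383 TPM in controls 1, 2 and 4. Control 1, with the lowest Myc among the controls and the lowest Mycn of all libraries, had the highest sum. Control 2, with the highest Myc and Mycn, had the lowest sum among the controls. Per TPM of Myc, the sum was 22.8 to 25.1 in DIC, 36.3 in control 1, 18.7 in control 2 and 28.3 in control 4, so that the controls spanned the DIC range. Control 2 also had the largest neutrophil share among the controls. Of 11 tested markers of the sort and of stem cells, 8 were highest in control 2 among the controls, and 3 were not (Ly6a, Cd48 and Hoxa9). How many of all tested genes were highest in control 2 among the controls was not counted. Kit measured 54.2, 99.5 and 68.2 TPM and Ly6a 19.6, 33.0 and 49.9 TPM in controls 1, 2 and 4.

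**Figure D2:**
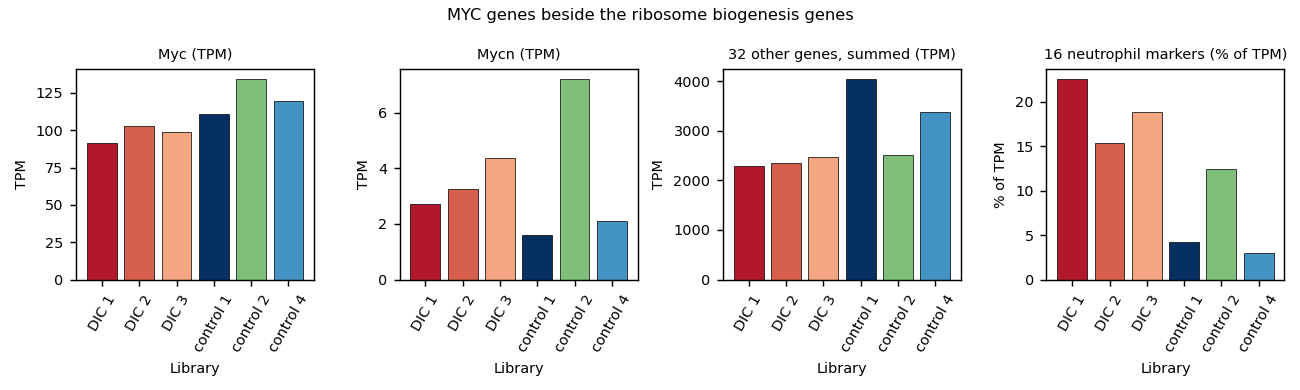
Bars give the level in each library (x axis) of Myc and Mycn in TPM, the sum over the 32 assembly genes in TPM, and the share of all TPM taken by 16 neutrophil markers in percent. The sum over the assembly genes is 2509 TPM in control 2, close to the 2293 to 2473 TPM of DIC, while Myc and Mycn are at their highest there.

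Among multifunctional nucleolar proteins, all 5 genes had negative differences, against 58.5% of all tested genes. In 0 of 5 were the groups apart, where 18.4% of all tested genes were apart with DIC lower, so few genes cannot show a trait of this role. Npm1, which encodes the histone chaperone and scaffold nucleophosmin, was the most abundant of the 34. It measured 484, 445 and 548 TPM in DIC and 941, 506 and 758 TPM in control. Control 2 fell within the DIC range and the other controls lay well above it. The difference was -0.54 ± 0.23 (limma adjusted p = 0.255), and -0.78 ± 0.15 without control 2 (limma adjusted p = 0.0309). Ncl, which encodes nucleolin, an RNA-binding protein of ribosomal RNA transcription and processing, showed the same arrangement. Its levels were 190.3, 196 and 209 TPM in DIC and 329.9, 199.9 and 287 TPM in control, a difference of -0.42 ± 0.19 (limma adjusted p = 0.266) that was -0.63 ± 0.11 without control 2 (limma adjusted p = 0.0281). Gnl3, which encodes the GTP-binding protein nucleostemin, was at 93.9 to 97.7 TPM in DIC and at 155.7, 95.8 and 121 TPM in controls 1, 2 and 4. The RNA helicase gene Ddx21 (13.6 to 16.7 against 14.2 to 25.4 TPM) and the MYB-binding protein gene Mybbp1a (51.1 to 57.5 against 54.3 to 90.5 TPM) had differences of -0.32 and -0.29.

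The catalytic core of RNA polymerase I had differences near 0. Polr1a, the largest subunit, measured 11.6, 10.3 and 11.9 TPM in DIC and 11.2, 9.29 and 11.1 TPM in control, a difference of 0.09 ± 0.15. Polr1b, the second largest, measured 17.5, 19.96 and 18.3 TPM against 21.9, 17.9 and 16.2 TPM, a difference of 0.00 ± 0.16. The groups overlapped for both genes (limma adjusted p = 0.764 and 0.997), and the sign for Polr1b turned without DIC 2, control 2 or control 4. A further 20 genes were placed in the list of RNA polymerase I and its factors. They include the small and shared subunits, factors that recruit the polymerase, and Znhit3. Their median difference was -0.42, with 18 of 20 negative, against 58.5% of all tested genes.

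Genes of the box C/D snoRNPs, which guide methylation of ribosomal RNA, had negative differences in 4 of 4, against 58.5% of all tested genes. Their median was -0.45. Of the 4, 0 passed the test, against 0.0593% of all tested genes. Fbl encodes fibrillarin, the methyltransferase of these particles, and had the lowest difference among the 34. It measured 112, 113 and 119 TPM in DIC and 232, 144 and 209 TPM in control. All 3 DIC libraries were within a few TPM of each other and below every control. The difference was -0.74 ± 0.18 (limma adjusted p = 0.212), and -0.94 ± 0.10 without control 2 (limma adjusted p = 0.015). Nop56 and Nop58, the paired core proteins, measured 183 to 196 and 163 to 184 TPM in DIC. In controls 1, 2 and 4 Nop56 was at 268, 191 and 311 TPM and Nop58 at 279, 175 and 225 TPM, so that control 2 lay inside the DIC range of each. Their differences were -0.40 ± 0.19 and -0.35 ± 0.18 (limma adjusted p = 0.277 and 0.309). Rrp9, the U3 snoRNP protein needed for early cleavage of the precursor, measured 22.8, 26.8 and 26.6 TPM against 46.2, 29.2 and 35.9 TPM with no overlap, a difference of -0.51 ± 0.19 (limma adjusted p = 0.219).

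Box H/ACA snoRNPs convert uridine to pseudouridine in ribosomal RNA, and their 4 genes had a median difference of -0.38. Nhp2, a core protein, measured 136, 154 and 154 TPM in DIC and 286, 158 and 244 TPM in control. Every DIC library was below every control, though control 2 was only slightly above DIC 2. The difference was -0.59 ± 0.22 (limma adjusted p = 0.219), and -0.84 ± 0.12 without control 2 (limma adjusted p = 0.0217). Dkc1, which encodes dyskerin, the pseudouridine synthase, also had no overlap, at 111, 133 and 134 TPM against 217, 141 and 168 TPM (difference -0.46 ± 0.18, limma adjusted p = 0.229). Gar1, another core protein, was at 63.8 to 76.5 TPM against 73.6 to 102 TPM, and Nolc1, a chaperone of these particles, at 37.8 to 39.9 TPM against 37.2 to 63.8 TPM. In both the groups overlapped because of control 2.

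Small subunit assembly genes had a median difference of -0.26 over 7 genes, nearer to 0 than the medians of the snoRNP, scaffold and large subunit genes. Of the 7, 6 were negative, against 58.5% of all tested genes. In 2 of 7 the groups did not overlap, against 18.4%. A difference between roles was not tested. All 7 but Wdr43 were in the longest of the 5 length groups described below, where the median of all tested genes was 0.05. Of the large subunit genes only Nop2 was. Among the further listed genes, the groups did not overlap in 16 of 43 for the small subunit (median -0.28). For the large subunit it was 14 of 49 (median -0.32). Tsr1, a late factor of the small subunit, measured 24.0, 22.7 and 22.7 TPM in DIC and 37.7, 24.2 and 28.0 TPM in control. It had no overlap, with control 2 just above DIC 1 (difference -0.34 ± 0.18, limma adjusted p = 0.321). Utp20, a scaffold of the early small subunit particle, also separated the groups, at 7.32, 7.51 and 6.31 TPM against 9.77, 7.68 and 8.55 TPM (difference -0.26 ± 0.17, limma adjusted p = 0.407). Wdr43 and Wdr75, which join the polymerase to early processing, were at 49.98 to 58.3 and 23.6 to 31.2 TPM in DIC against 55.3 to 86.9 and 27.6 to 40.0 TPM in control. Nop14, another early factor, was at 16.7 to 17.2 TPM in DIC, while control 2, at 14.4 TPM, was below and controls 1 and 4, at 28.9 and 21.98 TPM, above that narrow range. Heatr1 (16.1 to 17.4 against 14.5 to 23.1 TPM) and Rrp12 (8.08 to 9.50 against 6.73 to 12.2 TPM) had differences of -0.09 ± 0.19 and 0.01 ± 0.23 (limma adjusted p = 0.81 and 0.985).

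Large subunit assembly genes had negative differences in 10 of 10, against 58.5% of all tested genes, with a median of -0.45. Of the 10, 0 passed the test, against 0.0593% of all tested genes. The groups did not overlap in 8 of 10, against 18.4% of all tested genes. Ppan, which encodes a processing factor of the large subunit, measured 49.2, 65.0 and 55.6 TPM in DIC and 101, 71.9 and 103 TPM in control. The groups were apart, and control 2 was closest to DIC (difference -0.68 ± 0.18, limma adjusted p = 0.212). Nip7, another large subunit factor, measured 24.0, 28.7 and 26.7 TPM against 46.1, 36.7 and 39.6 TPM. Here control 2 was near control 4 and well above DIC, and the SE was the smallest among the genes with a difference under -0.5 (difference -0.60 ± 0.14, limma adjusted p = 0.212). Rrp1b measured 14.5, 18.3 and 17.2 TPM against 33.1, 21.0 and 24.8 TPM (difference -0.61 ± 0.19, limma adjusted p = 0.212), and Nop16 measured 43.3, 51.4 and 50.6 TPM against 92.0, 54.7 and 73.2 TPM (difference -0.56 ± 0.20, limma adjusted p = 0.215). Both separated the groups. These 4 of the 10 genes passed without control 2, where 8.45% of all tested genes passed as lower. Their differences were then -0.85, -0.67, -0.76 and -0.75 in the order given (limma adjusted p = 0.0266, 0.037, 0.0498 and 0.0338).

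The PeBoW complex, named for Pes1, Bop1 and Wdr12, is needed for maturation of large subunit RNA. Pes1 had the smallest spread of the 34 genes within DIC, though not within control, at 47.2, 47.4 and 46.9 TPM in DIC and 75.0, 49.9 and 56.4 TPM in control. Bop1 measured 43.0, 52.6 and 49.7 TPM against 85.9, 56.6 and 66.2 TPM, and Wdr12 61.1, 52.5 and 54.0 TPM against 81.4, 60.5 and 70.6 TPM. Pes1 and Bop1 separated the groups and Wdr12 did not, since DIC 1 exceeded control 2. Their differences were -0.33 ± 0.16, -0.50 ± 0.18 and -0.33 ± 0.14 (limma adjusted p = 0.30, 0.215 and 0.256). Of the remaining factors, the methyltransferase gene Nop2 (30.1 to 36.2 against 38.6 to 55.5 TPM) and Noc2l (62.1 to 77.1 against 80.7 to 101 TPM) separated the groups. Rrs1, which helps bring the 5S particle into the large subunit, did not (37.5 to 43.5 against 39.0 to 55.6 TPM).

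**Figure D3:**
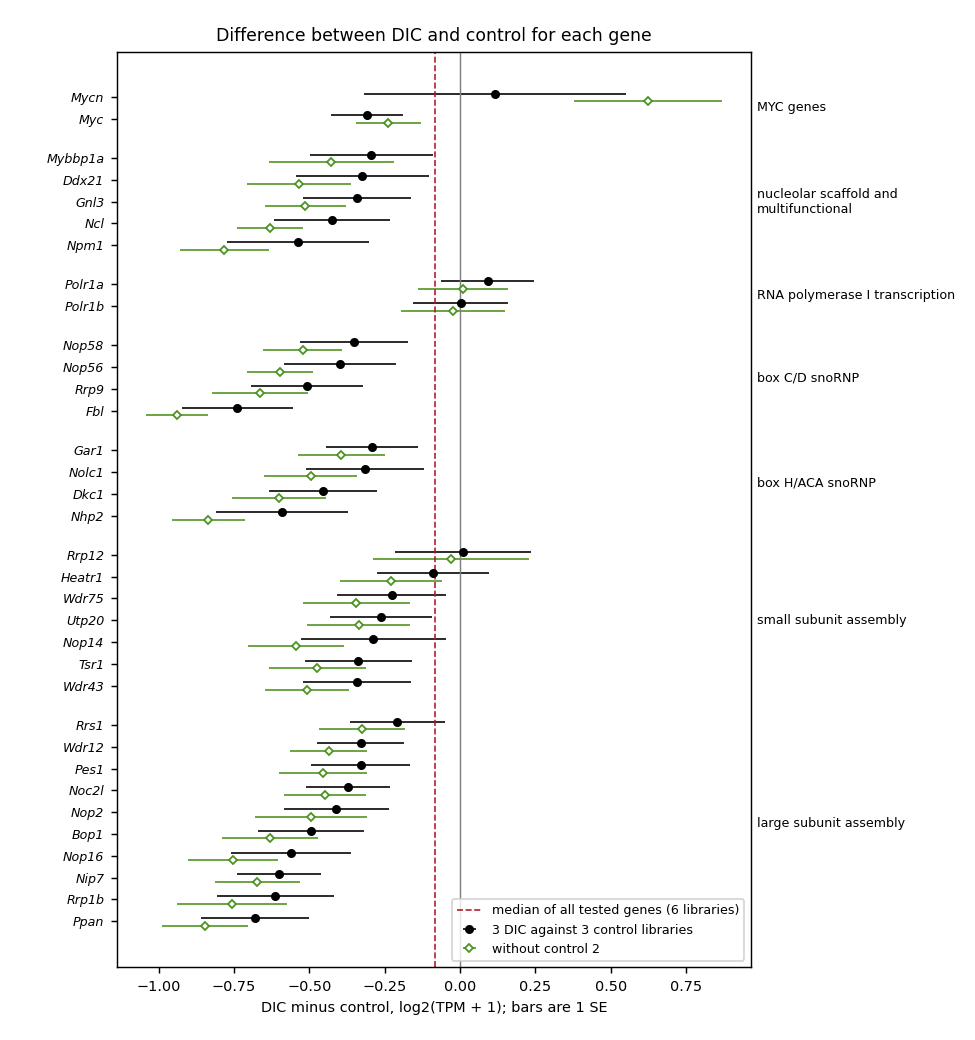
Difference between DIC and control for each of the 34 genes on the log2(TPM + 1) scale (x axis, bars are 1 SE), by role (y axis). Filled circles use all 6 libraries and open diamonds leave out control 2, which moves the median from -0.34 to -0.50, and the dashed line is the median of all tested genes at -0.08.

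Other genes of the pathway were listed by role, and whether each gene acts in the role of its list was not tested. Over all 6 libraries 0 genes of these lists passed the test, against 0.0593% of all tested genes. Of 17 tested genes of snoRNP assembly and RNA modification, 17 had negative differences (median -0.43), where 58.5% of all tested genes were negative. With the filter on low values raised to 5 TPM, that share of all tested genes was 62.2%. Differences were also negative for 39 of 43 further genes of the small subunit processome (median -0.28), 44 of 49 further large subunit factors (median -0.32) and 14 of 14 subunits and cofactors of the RNA exosome, which trims ribosomal RNA ends (median -0.40). The groups did not overlap, with DIC lower, in 6 of 17, 16 of 43, 14 of 49 and 8 of 14 genes of these lists and in 13 of the 20 further polymerase I genes, against 18.4% of all tested genes. Without control 2, 7, 10, 11, 7 and 8 genes in the same order passed, all lower, where 8.45% of all tested genes passed as lower.

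By the rule for naming, the genes with the lowest p in each list are given. Imp3, which links the U3 particle to the precursor, measured 45.5, 47.4 and 56.3 TPM in DIC and 80.7, 68.6 and 92.2 TPM in control, and Imp4, its partner, 49.4 ± 3.71 against 75.4 ± 10.9 TPM (SD, n = 3). Nop53 measured 57.7 ± 3.72 against 89.2 ± 12.6 TPM and Ruvbl1, an ATPase of snoRNP assembly, 78.1 ± 7.13 against 106 ± 14.6 TPM. The helicase gene Ddx56 measured 43.8 ± 4.60 against 71.5 ± 16.1 TPM and Zfp593 8.74 ± 1.05 against 16.3 ± 4.89 TPM. The exosome genes Exosc4 and Exosc5 measured 25.97 ± 3.34 against 38.1 ± 0.45 and 105 ± 16.9 against 163 ± 27.3 TPM. Polr2e, a subunit shared by the nuclear RNA polymerases, measured 79.7 ± 8.57 against 125 ± 23.3 TPM, and Znrd1, a small subunit of polymerase I, 49.0 ± 6.33 against 71.9 ± 9.16 TPM. The groups did not overlap in any of these 10 genes, with DIC lower, as in 18.4% of all tested genes. The genes were picked for a low p in the same comparison, which largely fixed this outcome, so it is no further support. The limma adjusted p of the 10 genes was 0.212, or 0.213 for Ruvbl1.

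MYC targets outside the nucleolus had a median difference of -0.38, with 45 of 49 tested genes negative, against 58.5% of all tested genes. Of the 49, 0 passed the test, against 0.0593% of all tested genes. The groups did not overlap, with DIC lower, in 20 of 49, against 18.4% of all tested genes. Without control 2, 18 of them passed, all lower, against 8.45%. Nme2, a nucleoside diphosphate kinase gene, measured 111, 160.2 and 136 TPM in DIC and 385, 178 and 377 TPM in control (difference -1.13 ± 0.31, limma adjusted p = 0.212). Its neighbour Nme1 is a close paralog, so the division of reads between them is uncertain. Tmem97 measured 77.2 ± 4.39 against 119 ± 26.1 TPM. Odc1, a MYC target gene of polyamine synthesis named here after its values were seen, measured 88.6, 80.3 and 97.8 TPM against 166, 82.1 and 149.7 TPM. In Odc1 as in Npm1, control 2 was inside the DIC range.

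The partners and antagonists of MYC had differences of both signs. Over 15 tested genes the median difference was -0.05, with 9 negative and 6 positive, where 58.5% of all tested genes were negative. Without control 1 the median was -0.28, where that of the 34 genes was -0.20, and with neutrophil markers removed and TPM rescaled it was 0.15. The difference between the lists was not tested. Zbtb17, which encodes the MYC partner MIZ1, measured 8.36, 10.2 and 8.60 TPM in DIC and 14.5, 11.7 and 13.5 TPM in control (difference -0.50 ± 0.16, limma adjusted p = 0.212). Mxi1, which encodes a repressor that competes with MYC for MAX, went the other way without overlap, at 66.3, 55.0 and 62.4 TPM against 42.9, 52.7 and 41.0 TPM (difference 0.42 ± 0.14, limma adjusted p = 0.213). It passed as higher without control 2 (0.53, limma adjusted p = 0.0472). Max, the common partner, and the antagonist Mxd1 were named after their values were seen. Max measured 69.2 ± 10.9 against 55.6 ± 13.4 TPM, with overlap. Mxd1 measured 96.3, 30.6 and 65.9 TPM in DIC 1, 2 and 3 and 30.7, 24.2 and 30.9 TPM in controls 1, 2 and 4. In the DIC libraries its order was that of the neutrophil share. In the controls its order was the reverse, with the lowest level in control 2, where that share was largest.

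In the arm that links ribosome assembly to p53, through the 5S particle proteins RPL5 and RPL11 that bind MDM2, 7 of 10 tested genes were negative. Of all tested genes, 58.5% were. The median of the 10 was -0.15, or 0.04 with neutrophil markers removed and TPM rescaled. Rpl11 measured 293, 347 and 349 TPM in DIC and 552, 392 and 572 TPM in control (limma adjusted p = 0.212). Cdkn1a, the p53 target that encodes the cell cycle inhibitor p21, measured 6.48, 9.33 and 9.67 TPM in DIC and 55.4, 11.1 and 78.8 TPM in control. Control 2 was near DIC, and the difference of -2.02 ± 0.65 did not pass (limma adjusted p = 0.212), while without control 2 it was -2.84 (limma adjusted p = 0.00997).

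**Figure D4:**
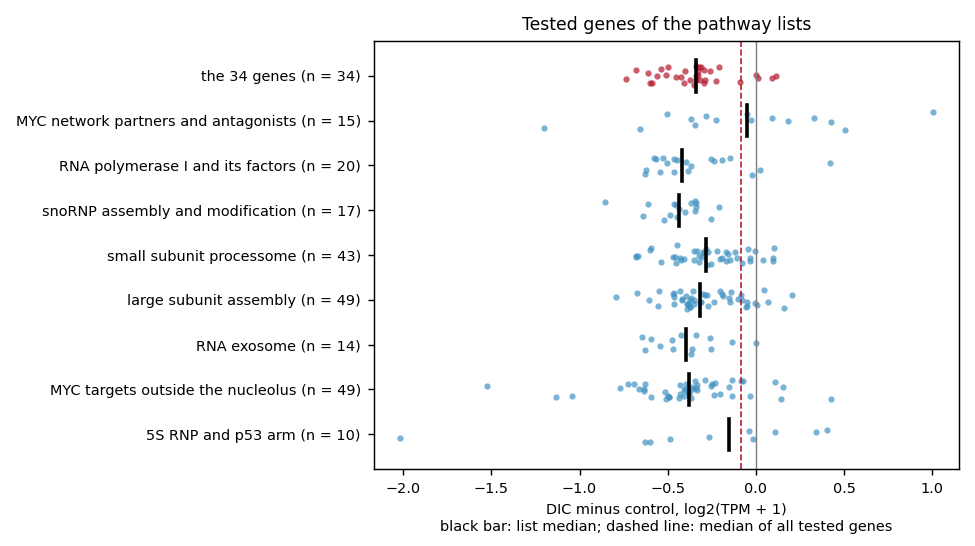
Each point is the difference between DIC and control of a tested gene on the log2(TPM + 1) scale (x axis), by list (y axis), with black bars at list medians and a dashed line at the median of all tested genes. Assembly, exosome and MYC target lists have medians between -0.28 and -0.43, and the MYC partner list has a median of -0.05.

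The size of the differences depends on what shares the TPM total. With the 16 neutrophil markers removed and TPM rescaled, the median of all genes moved from -0.08 to 0.10 and that of the 34 genes from -0.34 to -0.14. The distance between the medians was -0.26 before and -0.24 after. On the rescaled values 29 of 34 genes were negative and 8 of 34 separated the groups with DIC lower, against 7.9% of all tested genes. These 8 were Fbl, Ppan, Nip7, Rrp1b, Rrp9, Bop1, Nop16 and Noc2l. Myc was then at 118, 121 and 122 TPM in DIC and 116, 153 and 123 TPM in control, with overlap, and the assembly sum at 2766 to 3048 TPM in DIC and 4210, 2867 and 3487 TPM in controls 1, 2 and 4. The neutrophil share moves with group and with control 2, and beyond this rescaling its part in the differences was not tested.

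Differences also moved with gene length across the whole table. Over 11196 tested genes with a coding length, split into 5 groups of near equal size, the median difference was -0.22 in the shortest (up to 687 coding bases) and 0.05 in the longest (from 2379 bases). Among the 34 genes, the 3 in the shortest group, Nhp2, Nip7 and Nop16, had a median of -0.59 and the 11 in the longest a median of -0.26. Polr1a, Polr1b, Rrp12 and Heatr1, the genes with differences near 0 other than Mycn, were all in the longest group, at 3405 to 6429 coding bases. Within their own length group, 32 of 34 genes were below the median of all tested genes, the exceptions being Mycn and Polr1a, and the distance to that median was -0.33 in the median gene. The part of length in the differences was not tested further.

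**Figure D5:**
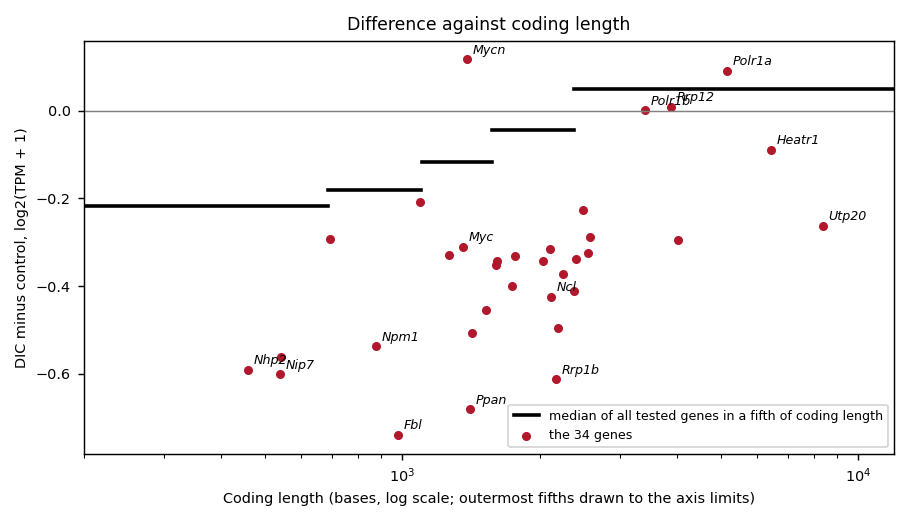
Difference between DIC and control on the log2(TPM + 1) scale (y axis) against the length of the longest coding sequence (x axis, log scale) for the 34 genes (points), with bars at the median of all tested genes in each of 5 length groups. Medians run from -0.22 in the shortest to 0.05 in the longest group, and 32 of 34 points lie below the bar of their group.

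Some of these values carry uncertainty from shared sequence. In the reference transcripts, 75.1% of the 31-base words of Fbl, 45.5% of Npm1, 38.2% of Nop56 and 33.4% of Pes1 also occur in another gene. The gene that shares most with each of these was at 0 to 1.32 TPM in every library, far below the parent gene. In addition, 8 of the 34 genes hold snoRNA genes in their annotated span, 23 in all, with Nop56 and Nop58 holding 5 and 4. A total of 16 overlap another gene on the opposite strand, and the sources used here do not say whether strand was used in counting.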

How the data were processed

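RNA from LSK-sorted marrow of 3 DIC and 3 control mice was made into SMART-Seq libraries and sequenced in paired reads, per the labels' protocols. The authors deposited TPM values per gene. Tools named in the submitters' processing notes are HISAT2 2.1.0, StringTie 2.1.2 and fastp 0.19.5, with the build GRCm39. No source used here gives the annotation release. Control columns 1 and 4 could be assigned to the group but not to single samples. Each column has the same total, so an abundant transcript lowers all others.

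Symbols came from GENCODE M21 by gene identifier (52081 of 56750 rows). Genes reaching 1 TPM in 3 or more of the 6 libraries were fitted as log2(TPM + 1) with limma 3.58.1 (R 4.3.3), trend on and group as the single term, two-sided. The fit was tested on simulated data, in 5 runs with 200 changed genes each. It recovered 42.7% of genes changed by 1 log2 unit, 82.7% at 2 and 91.2% at 3, with 30 false among 751 calls. Smaller changes were not simulated. The differences of the 34 genes all lay between -0.74 and 0.12, so their failure to pass does not show that they were unchanged. Neutrophil and other marker lists, pathway lists, the 34 genes and their roles were chosen with earlier results of these data known. Named genes are the 34 and, in each pathway list, those past the threshold or else the 2 with the lowest p. Of 329 list entries, 4 were matched through an older symbol. Coding length is the longest annotated coding sequence (GENCODE M21, GRCm38). Start windows are from RefSeq (GRCm38.p6). No set test was run. Alternatives were the pseudocount, the filter, scaling, the trend, a block and leaving out each library.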

Additional observations from a re-analysis of the deposited data

How the results depend on the processing

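Of the 441 alternative values for single genes, 417 kept the direction and the side of the threshold, 9 passed the threshold without control 2, and 15 turned in direction. The turns were in 4 genes that had differences near 0. Mycn was -0.218 with the replicate block and -0.20 to 0.623 with 1 library left out. Polr1b was -0.0797 with the block and -0.0905 to 0.118 with 1 library left out. Rrp12 was -0.102 with the block and -0.165 to 0.221 with 1 library left out. Heatr1 was 0.106 with neutrophil genes removed and -0.229 to 0.087 with 1 library left out. The number of the 34 genes past the threshold was 0 under every alternative but the one without control 2, and ran from 0 to 9 over the libraries left out. Their median ran from -0.502 to -0.195 over the libraries left out, and was -0.196 after quantile normalization and -0.14 with neutrophil genes removed. Over all genes, 8 passed, against 5 with a pseudocount of 0.1 TPM and 0 without a filter on low values (2088 lower and 1153 higher at an unadjusted p under 0.05), and 0 to 1671 with 1 library left out. The 0 came without DIC 1 or without control 4 and the 1671 without control 2. Removing neutrophil genes and rescaling also took the genes whose groups do not overlap from 15 to 8, a count added after the data were seen.

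Column numbers 1 and 2 occur in both groups, but nothing in the labels says that a number marks a shared litter or day. Deviations from the group means correlated at -0.0676 for number 1 and -0.102 for number 2. With a replicate block by column number, 8 genes passed over the whole table and 0 of the 34, with a median of -0.365. DIC 3 and control 4 share their number with no other library. The difference with the block therefore rests on the libraries numbered 1 and 2 alone and is not a check over all 6 libraries.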
